A study of Homo sapiens with 8 samples.

Results

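Accessible chromatin was described around 7 oncofetal and stem cell genes, LIN28A, LIN28B, SALL4, SOX2, HMGA2, IGF2BP1 and IGF2BP3, in G401 cells before and after SMARCB1 was switched on. The members were chosen by position alone: every peak of the 4 deposited lists with a base within 100 kb of the hg19 start site of 1 of these genes. That gave 601 of 411408 peaks. Overlapping peaks of different days were joined, which left 207 regions of 146099 in the genome. Position does not tie a region to the gene it lies near. By RefSeq's gene order, 6 other gene starts lie in the same distance of LIN28A (UBXN11, CD52, CRYBG2, ZNF683, DHDDS and HMGN2), 3 near IGF2BP1 (UBE2Z, SNF8 and GIP), 1 near LIN28B (HACE1), 1 near SALL4 (ATP9A), 1 near IGF2BP3 (TRA2A) and 0 near SOX2 or HMGA2. Whether the order used covers non-coding genes was not checked, so these counts may be too low.

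G401 is an established cell line derived from a renal rhabdoid tumour. It has lost SMARCB1, part of the SWI/SNF complex, which moves nucleosomes and opens chromatin. All groups used 1 stable line with inducible SMARCB1, kept in Tet-free FBS, and the labels do not say whether that line is a single clone. The day 0 group was labelled SMARCB1 -/-, and the groups of days 1, 3 and 7 were labelled SMARCB1 +/+ and had received 1 µg/ml doxycycline. ATAC-seq, which reads accessibility from where a transposase inserts adapters, was done on 2 replicates a day, 8 samples in all. A group with doxycycline and no SMARCB1 transgene is not among the labels, so the drug and SMARCB1 cannot be told apart. The deposited values are 1 peak list a day, with no value per replicate, so no difference below was tested against the spread between replicates. Intervals are 95% intervals that cover counting error only.

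Oncofetal genes are active in the embryo, silent in most adult tissues and active again in many tumours. LIN28A and LIN28B bind the precursors of the let-7 microRNAs and block their maturation, and mature let-7 in turn represses the mRNAs of HMGA2, LIN28B and the IGF2BP genes. SALL4 and SOX2 are transcription factors of the pluripotent state, while HMGA2 bends AT-rich DNA and IGF2BP1 and IGF2BP3 stabilise bound mRNAs.

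Promoter sequences are shown because the genes differed in whether their start site was accessible, described next, and base composition is one feature the choice of members did not use. RefSeq's table (GRCh38.p14, 250 bases before and 50 after a start) matched 3 of the 7 genes with 4 entries, since LIN28B has 2 starts 16142 bp apart. Capitals mark the letters CCAAT and the E-box CANNTG on either strand. The first LIN28B start is chr6:104940715-104941014 (plus strand), the other is chr6:104956857-104957156 (plus strand), SOX2 is chr3:181711675-181711974 (plus strand) and IGF2BP3 is chr7:23470442-23470741 (minus strand).
LIN28B, first start: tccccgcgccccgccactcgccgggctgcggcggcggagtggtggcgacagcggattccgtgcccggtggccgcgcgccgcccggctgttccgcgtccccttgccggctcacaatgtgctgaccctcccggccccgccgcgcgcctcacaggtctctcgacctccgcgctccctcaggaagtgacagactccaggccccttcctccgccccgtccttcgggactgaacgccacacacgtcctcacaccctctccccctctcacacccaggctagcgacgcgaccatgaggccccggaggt
LIN28B, other start: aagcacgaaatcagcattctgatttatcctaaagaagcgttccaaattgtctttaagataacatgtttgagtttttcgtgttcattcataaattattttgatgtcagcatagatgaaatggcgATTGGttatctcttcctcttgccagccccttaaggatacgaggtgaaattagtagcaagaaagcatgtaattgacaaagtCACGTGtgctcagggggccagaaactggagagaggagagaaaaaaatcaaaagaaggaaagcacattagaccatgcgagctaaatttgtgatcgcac
SOX2: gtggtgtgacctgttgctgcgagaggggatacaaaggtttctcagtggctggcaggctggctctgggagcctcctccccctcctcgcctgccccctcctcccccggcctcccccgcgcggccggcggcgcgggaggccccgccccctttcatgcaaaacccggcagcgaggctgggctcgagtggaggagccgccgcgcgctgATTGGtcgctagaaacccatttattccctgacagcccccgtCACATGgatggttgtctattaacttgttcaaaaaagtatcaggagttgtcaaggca
IGF2BP3: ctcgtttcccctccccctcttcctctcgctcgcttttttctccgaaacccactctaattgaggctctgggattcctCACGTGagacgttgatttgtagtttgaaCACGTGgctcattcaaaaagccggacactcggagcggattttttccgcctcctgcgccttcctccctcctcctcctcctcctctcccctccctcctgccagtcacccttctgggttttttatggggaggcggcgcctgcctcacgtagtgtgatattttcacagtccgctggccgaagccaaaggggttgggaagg
The first LIN28B promoter had a GC content of 73.0% with 37 CpG sites, and the other 39.0% with 8 CpG sites. GC content was 63.3% with 20 CpG sites at SOX2 and 56.3% with 17 CpG sites at IGF2BP3, beside a median of 58.7% over 35116 promoters. CCAAT stood once in the other LIN28B promoter, 127 bases before the start, and once in SOX2, 47 bases before it. An E-box stood 47 bases before the other LIN28B start, 6 bases before that of SOX2, and 174 and 146 bases before that of IGF2BP3, where both read CACGTG. Over all promoters, 34.6% hold CCAAT and 68.7% an E-box. The AP-1 letters TGANTCA (in 7.71% of all promoters), the CRE TGACGTCA (1.85%) and the TATA box TATAAA (11.5%) had no match in these 4 windows. A match of letters is a description and not a bound site. These coordinates are not hg19, and whether the peaks overlie these windows was not analysed here.

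At the start sites, 5 of the 7 genes lay under a broad peak on every day at the start used here, and SOX2 and LIN28B did not. Heights are given as reads at the summit, and, to compare days, as scaled summits, which are those reads divided by the genome-wide background of the day's list (6.34, 6.04, 6.73 and 6.10 reads on days 0, 1, 3 and 7). Fold is the authors' ratio of the summit to the background around the same peak.

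LIN28A, the let-7 blocker of embryonic stem cells, had a region over its start (chromosome 1, 26735632 to 26737545) with 181, 171, 157 and 150 reads on days 0, 1, 3 and 7. Its scaled summits were 28.5, 28.3, 23.3 and 24.6. SALL4, a zinc finger factor of embryonic stem cells, had 161, 140, 148 and 161 reads at its start (chromosome 20, 50418020 to 50419641), or scaled 25.4, 23.2, 22.0 and 26.4. By scaled summit, with the genome-wide background as the depth, day 3 was the lowest of the 4 days at both starts. The same held at the starts of HMGA2, IGF2BP1 and IGF2BP3, given next. It also held in 25327 of the 60786 regions of the genome with a peak on every day. HMGA2, an architectural protein with AT-hooks, had 193, 163, 173 and 188 reads (chromosome 12, 66217155 to 66218927), or scaled 30.4, 27.0, 25.7 and 30.8. For IGF2BP1, which binds mRNAs such as that of MYC, the region over the start (chromosome 17, 47072554 to 47075027) held 228, 215, 220 and 200 reads, or scaled 35.9, 35.6, 32.7 and 32.8. Its summits lay 1178 to 1219 bp upstream of the start given for the gene. IGF2BP3, a fetal mRNA-binding protein, had 221, 226, 216 and 215 reads (chromosome 7, 23509950 to 23511238), or scaled 34.8, 37.4, 32.1 and 35.2.

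Scaled by the genome-wide background, none of these 5 start regions differed from day 0 beyond counting error on any induced day. The widest departures were LIN28A on day 3, at 0.818 times day 0 (0.656 to 1.02), and HMGA2 on day 3, at 0.845 times (0.685 to 1.04). On day 7 the ratios were 0.862 (0.689 to 1.08) at LIN28A, 1.04 (0.83 to 1.3) at SALL4, 1.01 (0.824 to 1.24) at HMGA2, 0.912 (0.75 to 1.11) at IGF2BP1 and 1.01 (0.834 to 1.23) at IGF2BP3. These intervals leave room for changes of that width in either direction. The call depended on the scaling: with the median summit of regions present every day as the depth, SALL4 on day 1 (0.791, 0.625 to 0.996), HMGA2 on days 1 (0.768, 0.619 to 0.953) and 3 (0.804, 0.652 to 0.99) and LIN28A on day 3 (0.778, 0.624 to 0.971) were lower than day 0. Among day 0 regions of the genome, 8.46% had a summit at least as high as the LIN28A start, 12.2% as SALL4, 6.32% as HMGA2, 1.53% as IGF2BP1 and 2.22% as IGF2BP3. The background around these peaks was high as well, at 8.39, 9.22, 8.84, 8.67 and 13.6 times the genome's on day 0 for LIN28A, SALL4, HMGA2, IGF2BP1 and IGF2BP3. At IGF2BP3, 0.173% of day 0 regions had a background as high. As a result of that division, the fold at the 5 starts on day 0 was a modest 3.36, 2.72, 3.4, 4.09 and 2.54.

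LIN28B, the second let-7 blocker, had no region within 1 kb of the start used here. Its nearest, 1.6 kb downstream (chromosome 6, 105406555 to 105407074), held 48, 36, 39 and 35 reads, with fold 5.62, 4.43, 5.13 and 4.24. All 3 induced days were lower than day 0, at 0.787 (0.496 to 1.24), 0.766 (0.489 to 1.19) and 0.758 (0.476 to 1.2) times, each within counting error. Another region with a peak on every day lay 15.2 kb upstream (105389140 to 105389679), with 43, 53, 41 and 37 reads. RefSeq's 2 LIN28B starts are 16142 bp apart, and how this region lies to the first of them was not analysed here. The lack of a peak thus holds for the start used here alone. SOX2, an HMG-box factor that works with OCT4 in pluripotent cells, had no region over its start either. Its nearest region with a peak on every day, 2.0 kb upstream (chromosome 3, 181427290 to 181427728), held 41, 26, 38 and 28 reads, with fold 5.72, 3.83, 5.05 and 4.08. Here the ratios to day 0 were 0.666 (0.391 to 1.11), 0.874 (0.547 to 1.39) and 0.71 (0.423 to 1.18), the first falling to 0.576 (0.339 to 0.961) with the median summit as the depth. The background there equalled the genome-wide one on every day. By scaled summit on day 0 the order was IGF2BP1, IGF2BP3, HMGA2, LIN28A, SALL4, and then, far lower, LIN28B at 7.57 and SOX2 at 6.46. Neighbours in that order were within counting error of each other, except SALL4 and LIN28B, whose reads differed 3.35 times (2.42 to 4.73).

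**Figure D1:**
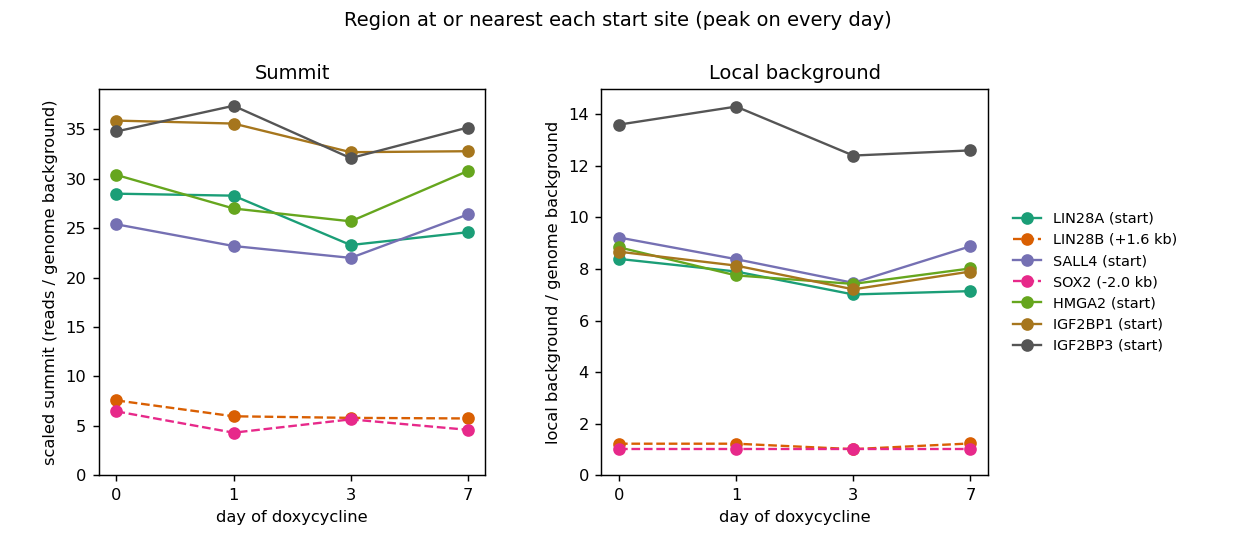
Scaled summit (reads over the genome-wide background, left) and local over genome-wide background (right) by day of doxycycline for the region over each start site, or, dashed, the nearest region with a peak on every day for LIN28B and SOX2. Each point is 1 value from 1 peak list, without an error bar. The 5 start regions lie between 22.0 and 37.4 by scaled summit and the LIN28B and SOX2 regions between 4.3 and 7.57, and the IGF2BP3 start has the highest local background on every day.

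The 7 windows differed in how many regions they held. HMGA2 had 41, LIN28A 37, SALL4 37, IGF2BP1 36, IGF2BP3 30, LIN28B 22 and SOX2 4. The median of the 11977 stretches of 200 kb with any region was 9. Only 0.902% of those stretches held as many as the HMGA2 window, and 2.33% as many as the LIN28A or SALL4 window. SOX2 stood at the other end, with 32.9% of stretches holding as few. By day, peaks fell in 134, 157, 154 and 144 of the 207 regions on days 0, 1, 3 and 7.

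**Figure D2:**
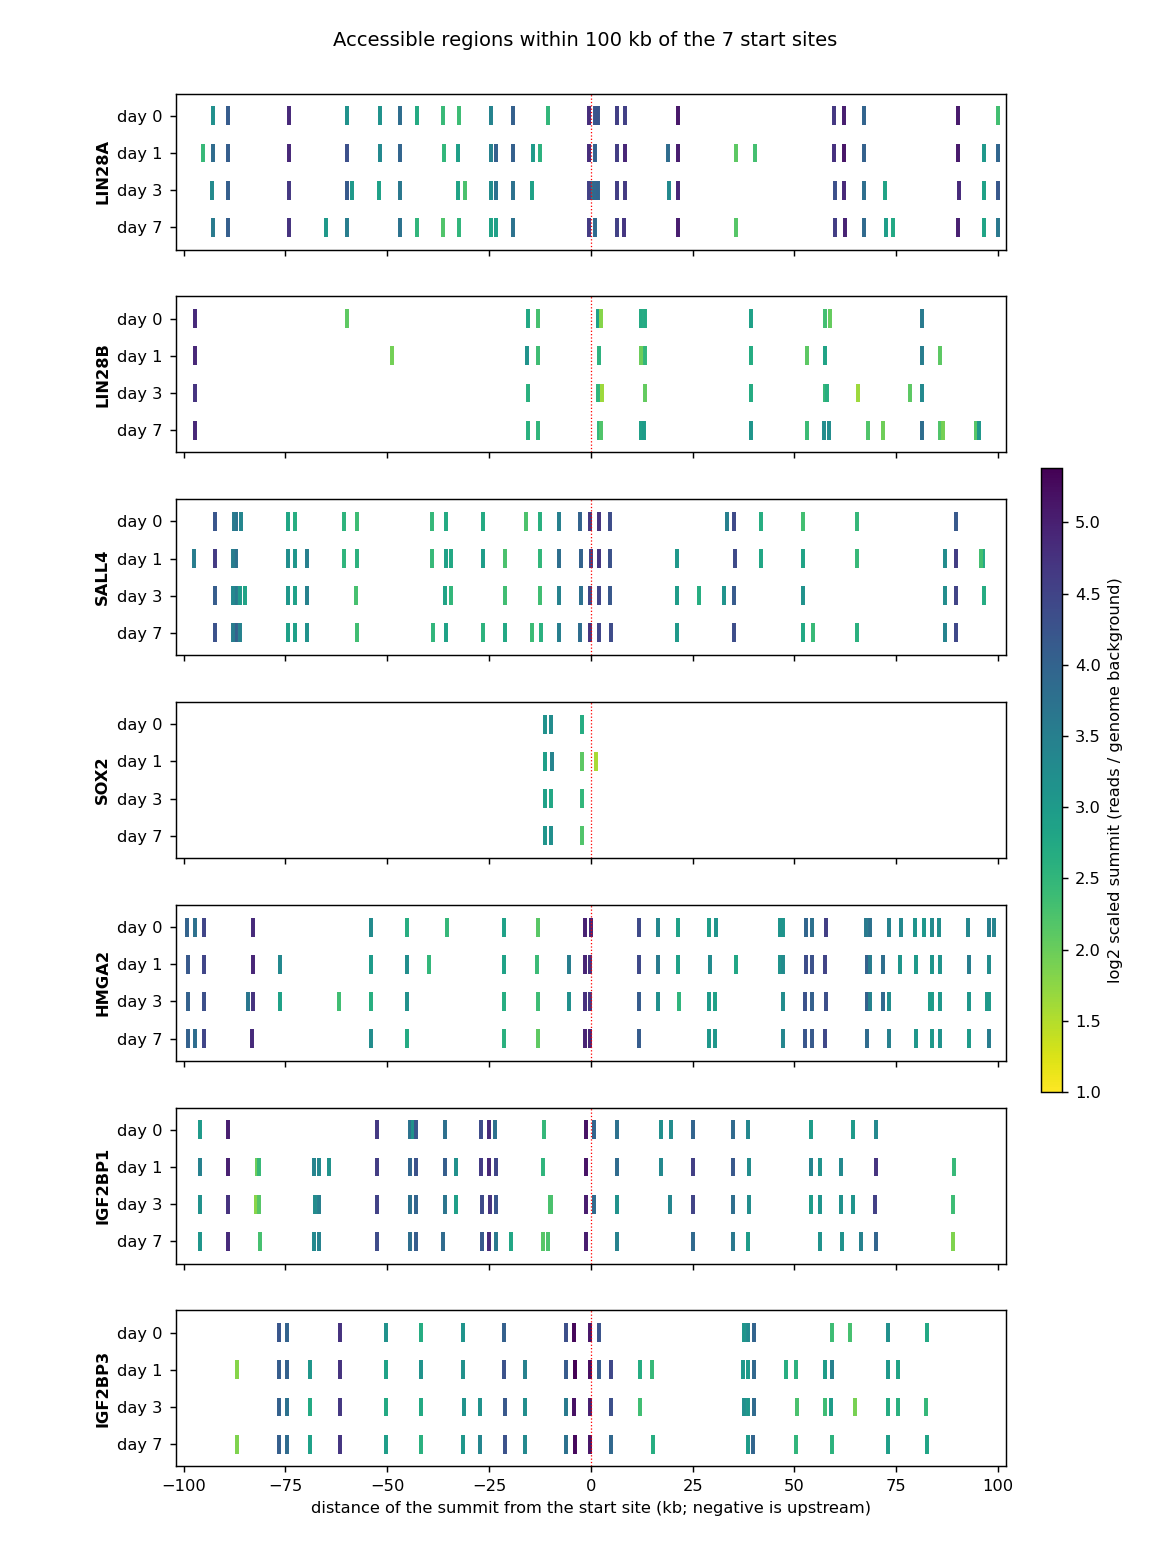
Position of each summit in kb from the start site (negative is upstream) for the 7 genes, with 1 row a day and the colour giving the log2 scaled summit. The HMGA2 window is filled on every day, the 4 SOX2 regions all lie from 11.0 kb upstream to 1.2 kb downstream, and the LIN28B row of day 7 holds 5 regions that no other day has.

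A region is called gained on a day when it had a peak then and none on day 0, and lost in the reverse case. All 3 comparisons share the day 0 list. The median scaled summit of gained regions near these genes was 7.03, 7.29 and 6.88 on days 1, 3 and 7, under the 14.1, 12 and 12.3 of regions that day 0 had too. Over the genome the gained medians were lower still, at 5.46, 5.5 and 5.25. On day 1, 44 of 157 regions were gained (28%, 21.2 to 35.7), against 36.3% of all regions in the genome. On day 3 it was 45 of 154 (29.2%, 22.2 to 37.1), against 41.8%, and on day 7 it was 35 of 144 (24.3%, 17.6 to 32.1), against 35.2%. The gained share near the 7 genes was below that of the genome on each induced day, and each interval ended under the genome's share. Among peaks with a −log10 q of at least 5 the gained shares were closer, at 31.8%, 30.8% and 26.8% against 35.0%, 40.3% and 33.7%. The intervals treat regions as independent draws, which neighbours in a window are not.

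The lost shares were a little above the genome's, but each interval held the genome's share. On day 1, 21 of 134 day 0 regions were lost (15.7%, 9.97 to 23.0), beside 13.0% over the genome. On day 3 the count was 25 (18.7%, 12.5 to 26.3), beside 14.6%, and on day 7 also 25 (18.7%, 12.5 to 26.3), beside 17.4%. Among peaks with a −log10 q of at least 5 the day 1 share stood further off, at 19.6% beside 11.1%, and those of days 3 and 7 were 17.9% beside 13.1% and 17% beside 15.3%. A peak on every day was seen in 93 regions (44.9%, 38.0 to 52.0), beside 41.6%. Of the 207, 16 were absent on day 0 and present on all 3 induced days (7.73%, 4.48 to 12.2), beside 13.1%. Day 0 alone had 9 (4.35%, beside 4.26%), day 1 alone 11 (5.31%, beside 6.69%), day 3 alone 15 (7.25%, beside 9.73%) and day 7 alone 12 (5.8%, beside 5.27%).

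By gene, the sustained gains were uneven, with 6 near IGF2BP1, 4 near SALL4, 4 near IGF2BP3, 2 near LIN28A and 0 near LIN28B, SOX2 and HMGA2. Gains on day 7 numbered 9 near IGF2BP1, 7 near LIN28B, 7 near IGF2BP3, 6 near LIN28A, 6 near SALL4 and 0 near SOX2 and HMGA2. Whether the genes differ in this was not tested.

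**Figure D3:**
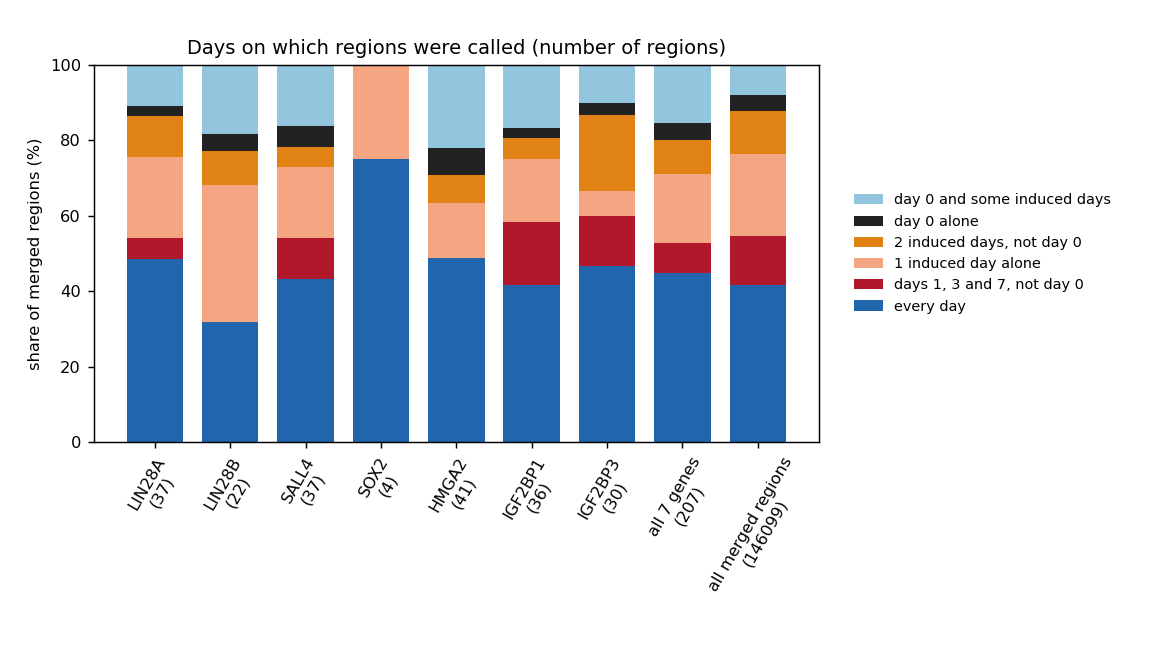
Share of each gene's merged regions (%, number of regions in brackets) by the days on which they had a peak, beside the share over all merged regions of the genome. HMGA2, LIN28B and SOX2 have no region gained on all 3 induced days, and LIN28B has 8 of its 22 on 1 induced day alone, 5 of them on day 7.

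Regions with a peak both on day 0 and on an induced day kept nearly the same height. At least 2-fold higher were 4 of 113 regions on day 1 (3.48% over the genome), 2 of 109 on day 3 (3.66%) and 2 of 109 on day 7 (2.10%). At least 2-fold lower was 0 on every induced day (0.0146%, 0.0686% and 0.0585% over the genome). By the authors' fold, at least 2 times higher were 1, 1 and 1 regions on days 1, 3 and 7 (0.899%, 0.966% and 0.428% over the genome). The median ratio to day 0 was 1.02, 0.902 and 0.977 on days 1, 3 and 7, close to 1.05, 0.943 and 0.973 over all regions. With a limit of 1.5-fold, 6, 6 and 4 regions were higher on days 1, 3 and 7 (8.60%, 7.78% and 5.66% over the genome) and 2, 4 and 2 were lower (0.496%, 1.89% and 1.42%). Of the 93 regions with a peak on every day, 77 (82.8%) had a highest scaled summit under 1.5 times their lowest, beside 82.3% of all such regions.

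**Figure D4:**
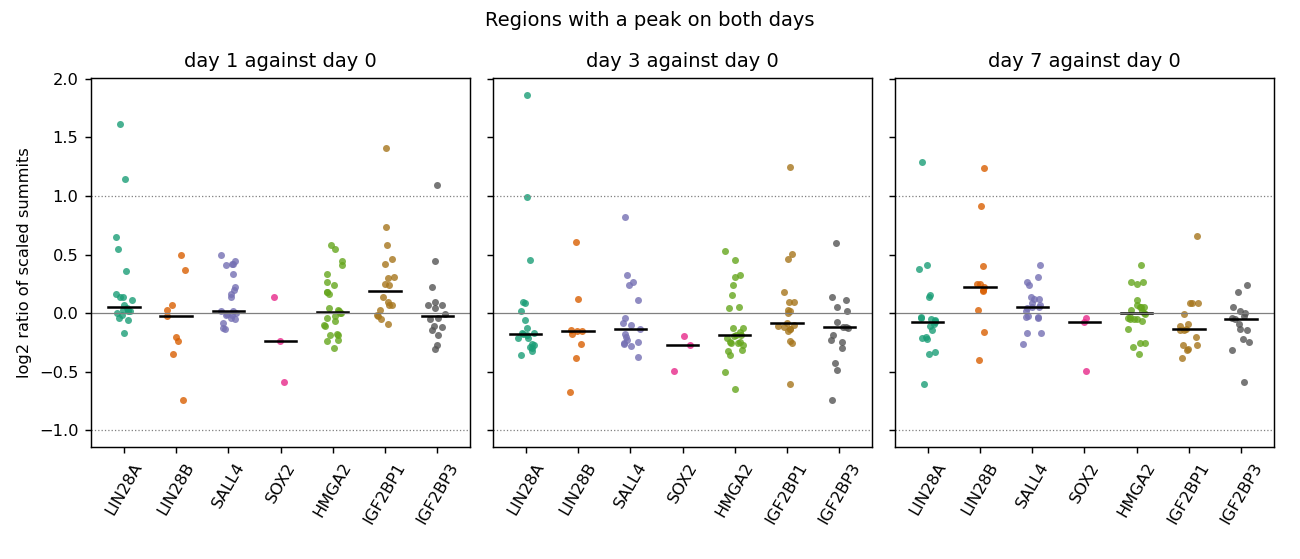
Log2 ratio of the scaled summit on days 1, 3 and 7 to that on day 0 for each region with a peak on both days, by gene. Each point is 1 region, black lines are medians and dotted lines mark 2-fold; the LIN28A region 99.6 kb downstream is the highest point on each day.

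Near LIN28A, the highest summit of any day was not at the start but 60.6 kb downstream (chromosome 1, 26797906 to 26799827), with 204, 213, 198 and 191 reads. By scaled summit that region led on day 1 only. A region 21.0 kb downstream (26758235 to 26759234) was higher on days 0, 3 and 7, with 216, 198, 203 and 200 reads on the 4 days. The largest rise was 99.6 kb downstream (26836870 to 26837859), where reads went from 32 on day 0 to 93, 123 and 75. Scaled for depth this was 3.05 (2.02 to 4.71), 3.63 (2.44 to 5.53) and 2.44 (1.59 to 3.81) times day 0. From day 3 to day 7 it fell to 0.672 times (0.498 to 0.903). Its covered length grew from 238 bp on day 0 to 914, 990 and 973 bp. Its summits lie 100004 to 100094 bp from the start, so only its edge is inside the window. A region 59.3 kb upstream (26677152 to 26677969) held 57, 120, 120 and 71 reads, a day 1 ratio of 2.21 (1.6 to 3.08), or 1.71 by the authors' fold.

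The higher sustained gain near LIN28A was 23.0 kb upstream (26713678 to 26714302), with no peak on day 0 and 101, 93 and 46 reads afterwards. At the background seen there on day 1, a day 0 summit would have needed about 44 reads to be called. It was lower on day 7 than on day 3, at 0.545 times (0.374 to 0.784). The region beside it, 24.3 kb upstream (26712518 to 26712953), had the largest fall, from 68 reads to 66, 64 and 43, a day 7 ratio of 0.657 (0.438 to 0.977). A weaker gain lay 96.2 kb downstream (26833428 to 26834001), with 50, 49 and 43 reads. The region of day 0 alone, 10.5 kb upstream (26726568 to 26726792), held 36 reads at fold 2.36.

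LIN28B had the most regions found on day 7 alone, 5 of 22 (22.7%, 7.82 to 45.4, beside 5.27% over the genome), though whether the genes differ in this was not tested. Peaks lay in 12, 12, 11 and 18 of its 22 regions on days 0, 1, 3 and 7. Its gains on day 7 numbered 7 of 18 (38.9%, 17.3 to 64.3), near the genome's 35.2%. The 5 regions of day 7 alone all lay over 50 kb downstream, a feature noticed after their values were seen. Of all 200 kb stretches of the genome with any region, 0.576% had as many of day 7 alone. That share is not matched for the number of regions, since 20.9% of the stretches held at least 22. They held 28 reads at 67.5 kb, 24 at 71.8 kb, 23 at 86.5 kb, 27 at 94.3 kb and 51 at 94.9 kb. The last (chromosome 6, 105499831 to 105500460) had fold 5.06, and about 24 reads would have been needed on day 0. At the regions before it, in the same order, about 22, 22, 20 and 23 reads would have been needed, so those stood little above the limit of calling.

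Of the regions between 57.1 and 81.1 kb downstream that day 0 also had, 2 of 3 had a higher summit on day 7 beyond counting error. At 57.1 kb (105462064 to 105462714) reads were 32, 43, 37 and 58, a day 7 ratio of 1.88 (1.2 to 3.0). At 57.9 kb (105462817 to 105463828) they were 26, 42 and 59 on days 0, 3 and 7 and no peak was called on day 1, a day 7 ratio of 2.36 (1.46 to 3.9). At 81.1 kb (105485995 to 105486549) they were 76, 71, 67 and 87, a day 7 ratio of 1.19 (0.865 to 1.64), within counting error. The background rose 1.69, 1.64 and 1.58 times at the 3 regions, and by the authors' fold their ratios were 1.14, 1.46 and 0.778. Of 11 LIN28B regions with a peak on days 0 and 7, 9 had a higher summit on day 7 (41.8% over the genome), with a median ratio of 1.17, and 9 a higher background. By the authors' fold 6 of the 11 were higher, with a median ratio of 1.03. The part of the background in these rises was not tested.

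Elsewhere in the LIN28B window the highest region, 96.8 kb upstream (105307005 to 105308138), was steady at 185, 180, 178 and 182 reads. The largest fall was 12.1 kb downstream (105417030 to 105417510), with 42, 24 and 46 reads on days 0, 1 and 7 and no peak on day 3. Its day 1 ratio was 0.6 (0.347 to 1.01). A region 59.9 kb upstream (105344816 to 105345068) was found on day 0 alone, with 27 reads at fold 3.81.

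**Figure D5:**
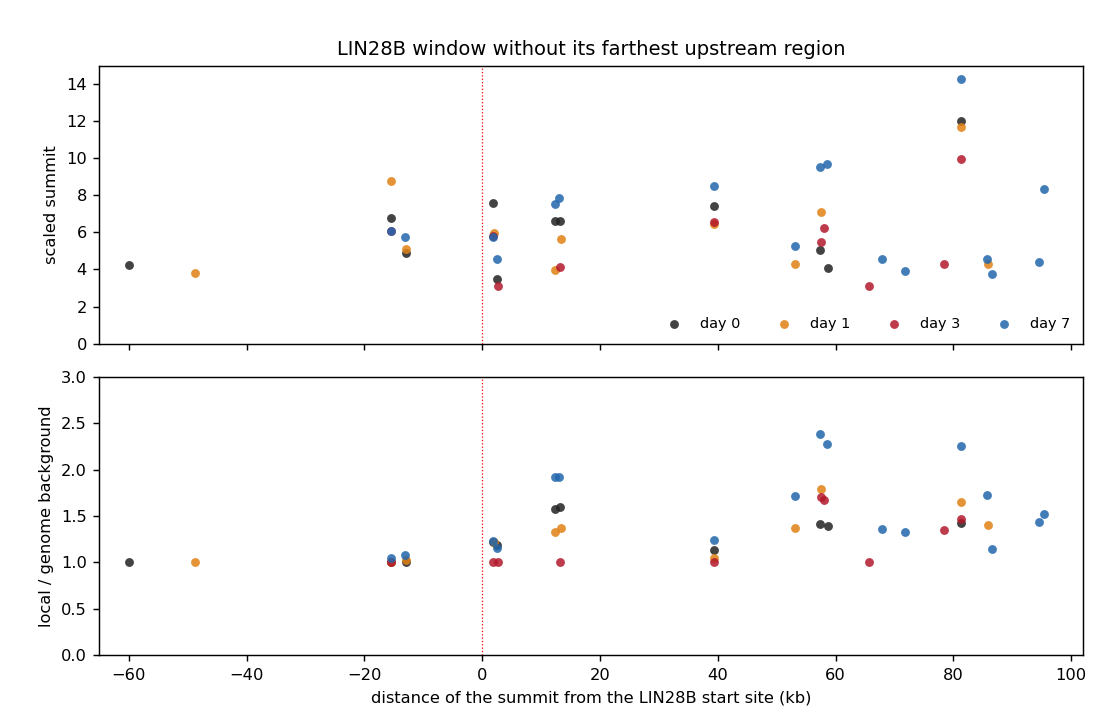
Scaled summit (top) and local over genome-wide background (bottom) for each LIN28B peak by distance of its summit from the start in kb, coloured by day, leaving out the region 96.8 kb upstream. The day 7 points stand above those of the other days at 57.1 kb in both panels.

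Near SALL4 the region with the highest summit of any day lay 1.7 kb downstream of the start (chromosome 20, 50416623 to 50417340), with 170, 157, 151 and 136 reads. On day 7 the start was higher, at 161 reads. Of the 4 sustained gains the highest were 69.3 kb upstream (50488395 to 50488942), with 68, 74 and 55 reads, and 86.7 kb downstream (50331768 to 50332367), with 58, 64 and 65 reads. Day 0 calls there would have needed about 33 and 47 reads, so the first was further above its limit. The largest rise, 52.0 kb downstream (50366579 to 50367083), went from 32 reads to 43, 60 and 41, a day 3 ratio of 1.77 (1.13 to 2.81). The largest fall, 85.8 kb upstream (50504859 to 50505364), was from 66 reads to 54 on day 3, or 0.772 times (0.528 to 1.12), with no peak on day 1 and 67 reads on day 7. Regions of day 0 alone lay 33.3 kb downstream (50385475 to 50385740; 71 reads, fold 2.25) and 15.8 kb upstream (50434801 to 50435028; 30 reads, fold 2.4). SALL4 lost 7 of 24 regions on day 3 (29.2%, 12.6 to 51.1, beside 14.6% over the genome) and 4 on day 7 (16.7%, beside 17.4%), and the first interval holds the genome's share.

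The SOX2 window was nearly empty. Its 4 regions are the sole ones in a stretch of 790.7 kb, since the next lie 385.0 kb upstream and 405.8 kb downstream. Besides the region 2.0 kb upstream, one lay 9.4 kb upstream (chromosome 3, 181419668 to 181420309), with 61, 64, 46 and 57 reads and fold 7.4, 7.99, 5.64 and 6.52. It had the highest summit of any day. Its ratios to day 0 were 1.1 (0.763 to 1.59), 0.711 (0.474 to 1.06) and 0.972 (0.665 to 1.42). Another, 11.0 kb upstream (181418199 to 181418756), held 57, 46, 50 and 52 reads. The last, 1.2 kb downstream (181430882 to 181431096), was found on day 1 alone, with 18 reads at fold 2.7. The 3 lasting regions had a median fold of 6.43 on day 0, against 3.83 over all regions and 2.26 for the HMGA2 window. Their background was low, at 1.26, 1.16 and 1.0 times the genome's on day 0 for the regions 11.0, 9.4 and 2.0 kb upstream. By height they were ordinary, with scaled summits of 8.99, 9.62 and 6.46 beside a median of 8.99 over all regions.

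HMGA2 had the most crowded window and the highest background, a median of 4.68 times the genome's on day 0 against 1.99 over all regions. None of its 41 regions was gained on all 3 induced days, and 6.48% of the 108 genome stretches with as many regions had none either. On day 7, 0 of 24 regions were gained (0 to 14.2%, beside 35.2% over the genome). Of 32 day 0 regions 8 were lost (25%, 11.5 to 43.4, beside 17.4%), an interval that holds the genome's share. Its highest region lay 1.1 kb upstream of the start (chromosome 12, 66216530 to 66217091), with 201, 186, 187 and 189 reads. Its largest rise, 44.9 kb upstream (66172619 to 66173321), was from 40 reads to 57, 61 and 40, or 1.5 (0.981 to 2.3), 1.44 (0.95 to 2.2) and 1.04 (0.654 to 1.65) times. The region 53.7 kb upstream (66163552 to 66164510) went from 62 reads to 48, 42 and 58, a day 3 ratio of 0.639 (0.421 to 0.961), and was back at 0.973 times day 0 on day 7. By the authors' fold its day 3 ratio was 0.809, with the background at 0.78 times day 0. Regions of day 0 alone lay 35.1 kb upstream (66182807 to 66183091; 35 reads), 81.8 kb downstream (66300038 to 66300259; 53 reads) and 99.0 kb downstream (66317194 to 66317407; 67 reads), at fold 3.09, 2.02 and 2.2.

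IGF2BP1 had 6 sustained gains in 36 regions (16.7%, 6.37 to 32.8), near the genome's 13.1%. The highest lay 66.6 kb upstream (chromosome 17, 47007742 to 47008142), with 61, 77 and 67 reads, and 67.6 kb upstream (47006469 to 47007168), with 64, 65 and 61 reads. About 50 reads would have been needed on day 0 at each, so on day 1 these gains stood little above the limit of calling. At 66.6 kb the 77 reads of day 3 were further above it. The largest rise was 69.2 kb downstream (47143989 to 47145160), from 63 reads to 159, 158 and 96. Its ratios were 2.65 (1.97 to 3.61), 2.37 (1.76 to 3.22) and 1.58 (1.14 to 2.21), and day 7 was 0.67 times day 3 (0.514 to 0.869). The background around it rose 2.05, 2.13 and 1.38 times, so that by the authors' fold the ratios were 1.32, 1.14 and 1.16. A region 23.2 kb upstream (47051181 to 47051578), with 86, 136, 126 and 75 reads, was 1.66 (1.26 to 2.2), 1.38 (1.04 to 1.84) and 0.907 (0.656 to 1.25) times day 0, with the background at 1.15, 1.02 and 0.923 times. The largest fall, 6.2 kb downstream (47080946 to 47081752), was from 86 reads to 88, 60 and 67, a day 3 ratio of 0.658 (0.465 to 0.926). The background around it was 0.735 times day 0 on day 3, and by the authors' fold the day 3 ratio was 0.887. The region of day 0 alone, 43.5 kb upstream (47031096 to 47031310), held 56 reads at fold 1.99.

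IGF2BP3 had the highest summit of the 7 windows, 3.3 kb upstream of its start (chromosome 7, 23513386 to 23514619), with 252, 252, 245 and 238 reads. Of day 0 regions in the genome, 0.188% were as high. Within 6 kb of the start, a gained region lay on one side and a region that fell on the other. The region 4.6 kb downstream (23504923 to 23505495) had no peak on day 0 and 130, 133 and 93 reads afterwards, scaled 21.5, 19.8 and 15.2, where about 73 reads would have been needed on day 0. It had the highest summit of the 16 sustained gains. By the authors' fold, 2.97, 3.0 and 2.55, it was below those 23.0 kb upstream of LIN28A (4.35, 4.11 and 2.73) and 69.3 kb upstream of SALL4 (4.31, 4.49 and 3.4). The region 5.9 kb upstream (23516033 to 23516513) went from 128 reads to 107, 81 and 82. That was 0.877 (0.672 to 1.14), 0.597 (0.446 to 0.794) and 0.666 (0.499 to 0.886) times day 0. The background around it was 0.957, 0.812 and 0.865 times day 0, and by the authors' fold the ratios were 0.916, 0.736 and 0.77. The start, between these regions, differed from day 0 by less than its counting error. So did the region 3.3 kb upstream, at 1.05, 0.917 and 0.982 times day 0. Another gain, 16.0 kb upstream (23526053 to 23526377), held 67, 63 and 61 reads, about 57 being needed on day 0. The largest rise, 58.9 kb downstream (23450657 to 23451184), was from 33 reads to 67, 53 and 36, or 2.13 (1.38 to 3.34), 1.51 (0.963 to 2.42) and 1.13 (0.687 to 1.88) times. The region of day 0 alone, 63.7 kb downstream (23446172 to 23446379), held 31 reads at fold 2.42.

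All 9 regions of day 0 alone near these genes were narrow, 208 to 285 bp wide, against 1289 to 2474 bp for the 5 start regions. The start widths join the peaks of 4 days, and the shortest peak of each list had 200 bp. Regions of 1 induced day alone could be as narrow, such as 200 bp upstream of LIN28A on day 1, or wider, such as 630 bp downstream of LIN28B on day 7. Of the 9, 8 had a fold between 1.99 and 3.09, the exception being that of LIN28B at 3.81.

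The limit of 100 kb cut through neighbouring regions. Just outside it, SALL4 had a high region 100.5 kb upstream with scaled summits of 27.4, 29.8, 24.2 and 26.6, and IGF2BP3 one 100.1 kb upstream with 14.0, 15.2, 13.8 and 14.9. Just inside, the last regions upstream were 97.3 kb from SALL4, found on day 1 alone at 11.7, and 86.6 kb from IGF2BP3, at 3.47 on day 1 and 3.61 on day 7. Near LIN28B the next region downstream, at 110.3 kb, was also found on day 7 alone, at 5.74.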

How the data were processed

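ATAC-seq was deposited for 8 samples, 2 replicates on each of days 0, 1, 3 and 7, as 1 file joining 4 peak lists of 80744, 109876, 117606 and 103182 peaks. Bowtie2, deepTools, MACS2 2.1.1.20160309 and hg19 come from the submitters' processing notes. Filters, any transposase offset and pooling of replicates: not given in the sources used here. Names of 3 lists match the labels' days, and the remaining list was taken as day 0 by elimination. Nothing in the labels says whether replicates came from separate cultures.

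Per peak, the deposited file gives the authors' fold (ratio of summit to local background), and the authors' −log10 p-value and −log10 q-value, with the summit as an offset in bp. Whole reads at each summit were recovered from fold and −log10 p: 1 whole number matched each of the 411408 peaks within 0.005. The commonest background value in each list served as its depth. It was held by 18.5%, 20.6%, 20.9% and 18.6% of peaks on days 0, 1, 3 and 7. The median summit had 57, 51, 52 and 48 reads on days 0, 1, 3 and 7, and the weakest 18, 16, 17 and 18. Peaks overlapping by at least 1 bp were merged, with the highest summit kept per day. Intervals are Clopper-Pearson for shares and conditional binomial for ratios of reads, both exact and 95%, and both covering counting error only. PCR copies would make them too narrow. Reads needed for a day 0 call take the first induced day's local background at the depth of day 0, an estimate, since the day 0 background there is unknown.

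Distances run from the region's nearest edge to the start site. Named regions are, per gene, those within 1 kb of the start, the highest on any day, and the largest rise and fall. They also include the 2 highest gained on all induced days and all of day 0 alone. Others were named after their values were seen. The members and lists were chosen with earlier results of these data known. Strands of LIN28B, SOX2 and IGF2BP3 are RefSeq's and those of the other genes general knowledge. Promoters and gene order are RefSeq's (GRCh38.p14). Other genes of the let-7 and pluripotency network were not analysed here, as their hg19 start sites were not at hand. No test across samples was possible. Scripts were tested on simulated data. Python 3.11.15, NumPy 2.4.6, pandas 2.3.3, SciPy 1.17.1 and matplotlib 3.10.9 were used.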

Additional observations from a re-analysis of the deposited data

How the results depend on the processing

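No paired analysis was possible because each day has 1 peak list and no value per sample, and for the same reason leaving out a replicate was not run. Narrower windows left fewer regions by construction. Within 50 kb, peaks numbered 77, 87, 79 and 73 on days 0, 1, 3 and 7, gained regions 20, 18 and 11 and lost regions 11, 16 and 15 on days 1, 3 and 7. Within 25 kb, peaks numbered 46, 53, 52 and 46, gained regions 12, 12 and 9 and lost regions 6, 7 and 9. As shares, gains within 50 kb were 23.8%, 23.4% and 15.5%, and within 25 kb 23.1%, 23.5% and 19.6%. With a −log10 q of at least 5 the gained shares were 31.8%, 30.8% and 26.8%, against 35.0%, 40.3% and 33.7% over the genome, and the share gained on all induced days was 10.1% against 13.4%. Lost shares there were 19.6%, 17.9% and 17%, against 11.1%, 13.1% and 15.3%. Gains thus came nearer to the genome's share and day 1 losses moved away from it. Counting only reciprocal overlaps of 50% as shared raised lost regions on day 1 from 21 to 34. Regions at least 2-fold higher numbered 1, 1 and 1 by the authors' fold. A limit of 1.5-fold gave 6 on day 3 and 4 on day 7. Requiring the summit within 100 kb, chosen after seeing the data, gave 1 on day 3 and 1 on day 7, since the LIN28A region 99.6 kb downstream left the count. Of 69 ratios of named regions, 69 stayed within their counting interval when scaled by the median summit of regions present every day, and 67 by the authors' fold. Scaling by the median summit shifts all ratios by -0.21, -0.07 and -0.04 (log2) on days 1, 3 and 7, and intervals then left out 1 for 5, 3 and 0 further ratios on these days: the start ratios of the report, SOX2 2.0 kb upstream, LIN28B 12.1 kb downstream (0.519) and IGF2BP3 5.9 kb upstream (0.76) on day 1, and SALL4 1.7 kb downstream (0.797) on day 3. Depth limits the weak regions: the weakest peaks held 16 to 18 reads, and an absent peak may be a summit just under it.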

Other observations

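The 16 regions near these genes gained on all 3 induced days are set here beside those of the genome, with no test of the difference. Their highest day was day 1 in 12 cases, day 3 in 1 and day 7 in 3. Of 19074 sustained gains in the genome, 4920 were highest on day 1, 11166 on day 3 and 2988 on day 7. Both counts take the genome-wide background as the depth. With the median summit as the depth, values would shift by -0.21, -0.07 and -0.04 (log2) on days 1, 3 and 7, lowering day 1 most. The highest days were not counted that way. From day 3 to day 7, 7 of the 16 fell (43.8%), against 77.3% over the genome. Their median scaled summits were 9.18, 8.85 and 8.52 on days 1, 3 and 7, against 6.62, 8.03 and 6.39. They also lay in higher background, a median of 3.56 times the genome's on day 1 against 1.4, and their median fold on day 3 was 2.73 against 4.27. The part of the background in the time course was not tested.

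Day 3 gave the lowest scaled summit in 48 of the 93 regions with a peak on every day near these genes, and in 25327 of 60786 over the genome. These counts too take the genome-wide background as the depth.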
